A study of Mus musculus with 27 samples.

Results

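Among 19392 genes measured in the mouse kidney after ischemia, 10 were followed here across every ischemia time because they are genes of macrophages or of the growth factor pathway that macrophages depend on. They were chosen by symbol, namely Csf1 and Il34 (the ligands), Csf1r (their receptor), Cd68, Adgre1, Cd14 and Mrc1 (macrophage proteins), Arg1 (an enzyme), and Cx3cr1 and Ccr2 (chemokine receptors). All 10 were found in the table, and all 10 were among the 18188 genes tested. RNA-Seq was done on the left kidneys of 27 C57BL/6 mice, 3 for each ischemia time, namely 0 min (the sham group) and every 2 min from 16 to 30 min. The paper lists 0 min among its ischemia groups and describes the same procedure for them. The right kidney was removed, the mouse was kept on a 37 °C platform, and the left kidney was taken after 24 h. The injured groups are the uIRIx model, unilateral ischemia-reperfusion with contralateral resection, so these mice lived on the measured kidney alone. The surgery of the sham mice is not described separately, so removal of their right kidney is not stated outright. If it was not removed, the comparisons with 0 min hold the nephrectomy as well as the clamping. The replicates were different mice, and mouse age and sex are not given in the sources used here.

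Macrophages of the kidney live between the tubules and around the vessels, and they need signalling through CSF1R, a tyrosine kinase receptor on monocytes and macrophages, to survive and divide. CSF1R has a pair of ligands, CSF1 and IL-34, which are made by tubular epithelium and other non-macrophage cells of the kidney, and in mouse models of ischemic injury both have been tied to the growth of the macrophage population. Circulating monocytes enter tissue through CCR2 and its chemokines, while CX3CR1 is typical of resident kidney macrophages and patrolling monocytes.

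Values are FPKM, a read level divided by transcript length and by library size, so levels of different genes can be compared per length. The summed FPKM of a kidney lay between 512500 and 554000, and the number of reads behind it is unknown. Markers of the kidney tubule were present throughout, with 8 of them summing to 1328 to 5445 FPKM per kidney. A gene was called changed where limma, fitted to log2(FPKM + 1) of all genes and kidneys, gave an adjusted p-value under 0.05 and a log2 fold change beyond 1 in either direction. Because of the added 1 FPKM, log2 fold changes of the low genes Adgre1, Mrc1, Arg1, Cx3cr1 and Ccr2 understate the change in FPKM. In whole kidney RNA, fewer cells of a type and less RNA per cell cannot be told apart.

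A pair of kidneys was compared with the others of their groups in this way, and the rest were not counted so. Replicate 3 of the 16 min group was the lowest of its 3 kidneys for 7 of the 10 genes and for 15 of 24 other macrophage markers. Replicate 3 of the 30 min group was the highest of its 3 kidneys for 9 of the 10 genes and for 17 of the 24 markers. Without the first, 4 of the 10 genes were called at 16 min in place of 2, and without the second, 5 were called at 30 min, the number with it. These were not the only kidneys to differ from their groups. Replicate 1 of the 20 min group was the highest of its 3 kidneys for each of the 10 genes but Csf1 and Csf1r.

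Compared with 0 min, Cd68 and Il34 were called higher at every ischemia time from 16 min on. Csf1r was called lower from 26 min on, and Csf1 and Cd14 were called higher at 28 and 30 min. Adgre1, Mrc1, Arg1, Cx3cr1 and Ccr2 were called at no ischemia time. This made 2 of 10 genes called at 16 min, where 2.25% of all genes tested were called, and 2 of 10 at 18, 20, 22 and 24 min, where 3.06%, 2.51%, 3.29% and 3.12% of all genes were called. At 26 min, 3 of 10 were called (all genes, 3.77%). At 28 min it was 5 of 10 (all genes, 8.48%), and at 30 min also 5 of 10 (all genes, 10.7%). The median log2 fold change of the 10 genes lay between 0.11 at 22 min and 0.58 at 30 min, and that of all genes tested lay between -0.01 and 0.00 in each of the 8 comparisons.

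**Figure D1:**
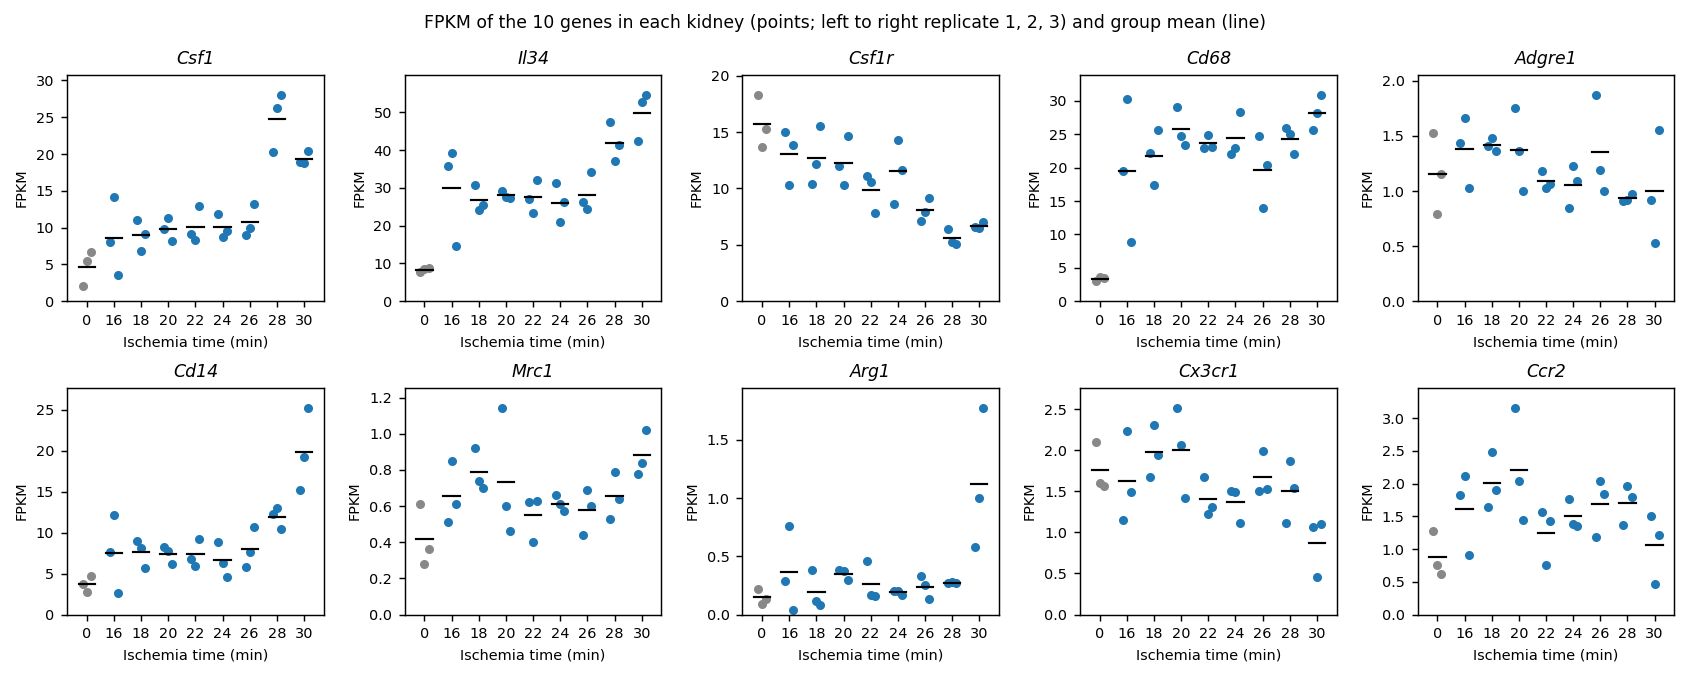
FPKM (linear y axis from 0, a different range in each panel) of the 10 genes against ischemia time in min, with 1 point per kidney, grey for 0 min and blue for the clamped kidneys, and a line at the mean of 3. Cd68 and Il34 step up between 0 and 16 min, Csf1 steps up between 26 and 28 min, and Csf1r is lowest at 28 and 30 min.

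RefSeq promoter windows (GRCm38.p6) were read for 5 of the 10 genes, and none is reported here for the others, Cd14 and Csf1r among them. Of the 5 windows, those of Csf1 and Cd68 are shown, because both genes rose and their 250 bases before the start overlap no annotated exon. They are written on the gene's own (minus) strand, 5′ to 3′, with capitals for matches to 4 motifs searched on both strands, TGANTCA (AP-1), GAGGAA (PU.1), TTCNNNGAA (STAT) and the NF-kB site of the immunoglobulin kappa enhancer, whose letters are those in capitals in the Csf1 window, read from the other strand.
Csf1, chr3:107760470-107760719: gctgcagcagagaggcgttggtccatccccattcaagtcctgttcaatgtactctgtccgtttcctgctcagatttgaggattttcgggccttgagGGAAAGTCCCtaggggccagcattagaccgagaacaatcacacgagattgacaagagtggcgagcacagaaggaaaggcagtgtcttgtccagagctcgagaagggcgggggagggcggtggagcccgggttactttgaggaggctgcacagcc
Cd68, chr11:69666171-69666420: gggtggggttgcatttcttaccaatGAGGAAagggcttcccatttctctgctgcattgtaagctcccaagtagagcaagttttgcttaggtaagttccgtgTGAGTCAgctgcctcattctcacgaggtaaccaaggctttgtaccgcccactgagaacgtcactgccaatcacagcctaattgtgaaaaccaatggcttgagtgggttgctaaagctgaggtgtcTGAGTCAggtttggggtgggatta
The Csf1 window holds 1 match to the NF-kB letters, on the opposite strand, 154 bases before the start, and 0.14% of 32851 promoter windows of the same length hold one. The Cd68 window holds 2 matches to the AP-1 letters, 149 and 24 bases before the start (6.75% of windows hold at least 1), and 1 to the PU.1 letters, 225 bases before the start (23.2% of windows). Neither window held the STAT letters, which 7.02% of windows hold. No binding was measured in these kidneys, and the matches describe the letters alone.

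Csf1 lies on the minus strand at chr3:107741048-107760469 (GRCm38.p6, RefSeq), and Il34 at chr8:110741829-110805949. In the sham kidneys Csf1 was at 2.02, 5.42 and 6.71 FPKM, a spread wider than that of Il34, which was at 7.76, 8.40 and 8.92 FPKM. At 16 min Csf1 was at 8.05, 14.14 and 3.51 FPKM, so that replicate 3 lay within the sham range. Over the 15 kidneys from 18 to 26 min, Csf1 ran from 6.76 to 13.23 FPKM with a median of 9.51 FPKM, and every one of these kidneys was above every sham kidney. The group means were 9.02 FPKM at 18 min and 10.7 FPKM at 26 min, and the linear trend from 16 to 26 min, 0.36 ± 0.28 log2 units per 10 min, did not pass the test (adjusted p = 0.79).

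At 28 min Csf1 was at 20.24, 26.19 and 28.00 FPKM. At 30 min it was at 18.88, 18.82 and 20.44 FPKM. All 6 kidneys of these groups were above all other 21 kidneys, and the mean at 28 min was 5.26 times the sham mean. The log2 fold change against 0 min was 0.57 ± 0.33 (SE) at 16 min and between 0.79 and 0.99 from 18 to 26 min, where the adjusted p-value was 0.082 at 18 min, 0.051 at 20 min and 0.028 to 0.042 later, but the fold stayed below the threshold. It was 2.11 ± 0.33 at 28 min (adjusted p = 2.4e-05) and 1.82 ± 0.33 at 30 min (adjusted p = 9.2e-05).

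The step between 26 and 28 min was tested directly. Csf1 was 1.13 ± 0.33 higher on the log2 scale at 28 than at 26 min (limma, adjusted p = 0.021), and it was the 1 of 10 genes called there, against 1.5% of all genes tested. It missed the threshold when replicate 1 or 2 of the 26 min group or replicate 2 or 3 of the 28 min group was left out, with log2 differences of 1.02, 1.08, 1.08 and 1.04 and adjusted p-values of 0.077, 0.071, 0.060 and 0.076. The position of Csf1 at 18 to 26 min was also sensitive to the sham group, in which replicate 1 was the lowest. Without sham replicate 3 the fold was past the threshold at all 5 of these times, from 1.04 at 18 min to 1.24 at 26 min. Without sham replicate 2 it was past the threshold at 22, 24 and 26 min, with 1.08, 1.07 and 1.14. The same held at 22 min without replicate 2 of that group (1.04), at 26 min without replicate 1 of that group (1.09), and at 16 min without replicate 3 of that group (1.01, adjusted p = 0.017). Other fits went the other way. The lowest fold with 1 kidney left out was 0.17 at 16 min, 0.38 at 18 min and 0.58 at 26 min. Across these fits the limma adjusted p-value ran up to 0.82 at 16 min, 0.43 at 18 min and 0.19 at 26 min.

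Il34 was at 35.68, 39.30 and 14.68 FPKM at 16 min, all above the sham kidneys, with replicate 3 again the lowest. From 18 to 26 min it lay between 20.83 and 34.20 FPKM (median 26.98, 15 kidneys). It was at 47.36, 37.11 and 41.22 FPKM at 28 min and at 42.40, 52.60 and 54.52 FPKM at 30 min, so these 6 kidneys were above all 15 kidneys from 18 to 26 min, and the 28 min group overlapped only the 16 min group and the 30 min group. Against 0 min, the log2 fold change was 1.52 ± 0.23 at 16 min (adjusted p = 2.7e-04), between 1.41 and 1.54 from 18 to 26 min, 2.07 at 28 min and 2.38 at 30 min (adjusted p = 5.8e-08). From 26 to 28 min it differed by 0.55 ± 0.23 (adjusted p = 0.11), which did not pass the test. Il34 was thus called from the shortest ischemia time measured, and Csf1 from 28 min on.

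Per length, Il34 was the more abundant ligand in all 27 kidneys. It made up 57.1% to 79.3% of the summed FPKM of the ligands at 0 min, 78.6% ± 4.41 (SD, n = 3) at 16 min and 72.5% ± 1.70 at 26 min. The share was 62.7% ± 6.35 at 28 min and 71.9% ± 2.35 at 30 min. The ratio of Csf1 to Il34 was accordingly 0.345, 0.408 and 0.387 in the 26 min kidneys and 0.427, 0.706 and 0.679 in the 28 min kidneys, without overlap (ratio of geometric means 1.56, with no test of its own).

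The receptor gene Csf1r ran the other way. Its FPKM was 18.28, 13.70 and 15.29 at 0 min and 15.02, 10.27 and 13.89 at 16 min, with overlapping ranges. It was between 10.30 and 15.51 FPKM at 18 and 20 min, and was 11.11, 10.56 and 7.87 at 22 min. It was 8.63, 14.34 and 11.64 at 24 min and 7.16, 7.93 and 9.17 at 26 min, and the 22 and 26 min groups lay wholly below the sham kidneys. The lowest values were 6.45, 5.23 and 5.10 FPKM at 28 min and 6.59, 6.47 and 7.0 FPKM at 30 min. Each of these 6 kidneys was below each of the other 21, and the 28 min mean was 0.355 of the sham mean.

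On the log2 scale Csf1r differed from 0 min by -0.36 ± 0.18 (SE) at 16 min (adjusted p = 0.19), -0.74 at 22 min (adjusted p = 0.0052) and -0.55 at 24 min (adjusted p = 0.029), none past the fold threshold. It fell by 1.0 at 26 min (adjusted p = 4.3e-04), 1.46 at 28 min (adjusted p = 2.1e-06) and 1.23 at 30 min (adjusted p = 1.1e-05). The call at 26 min was at the edge of the threshold. It was lost without quantile normalization (-0.88), with FPKM rescaled to a constant sum (-0.89), and without sham replicate 1 (-0.90), 26 min replicate 1 (-0.93) or 26 min replicate 2 (-0.99). A linear trend over the 6 ischemia times from 16 to 26 min gave -0.57 ± 0.16 log2 units per 10 min for Csf1r, the steepest of the 10 slopes, with an adjusted p of 0.28. None of the 10 genes passed the trend test (limma), which called 0.011% of all genes, 2 in number. At an unadjusted p under 0.05 it was 1 of the 10 (Csf1r) and 1514 of all genes.

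The FPKM ratio of Csf1 plus Il34 to Csf1r within each kidney restates the opposite changes of these genes and is given as a description, with no test. It was 0.535, 1.01 and 1.02 in the sham kidneys. At 16 min it was 2.91, 5.2 and 1.31, and at 26 min 4.92, 4.31 and 5.17. It reached 10.5, 12.1 and 13.6 at 28 min and 9.30, 11.0 and 10.7 at 30 min. No kidney of the 8 clamped groups overlapped the sham kidneys, and no kidney at 28 or 30 min overlapped those at shorter times. The ratio at 28 min was 2.5 times that at 26 min and 14.6 times that at 0 min (geometric means), and at 30 min it was 0.861 of that at 28 min.

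**Figure D2:**
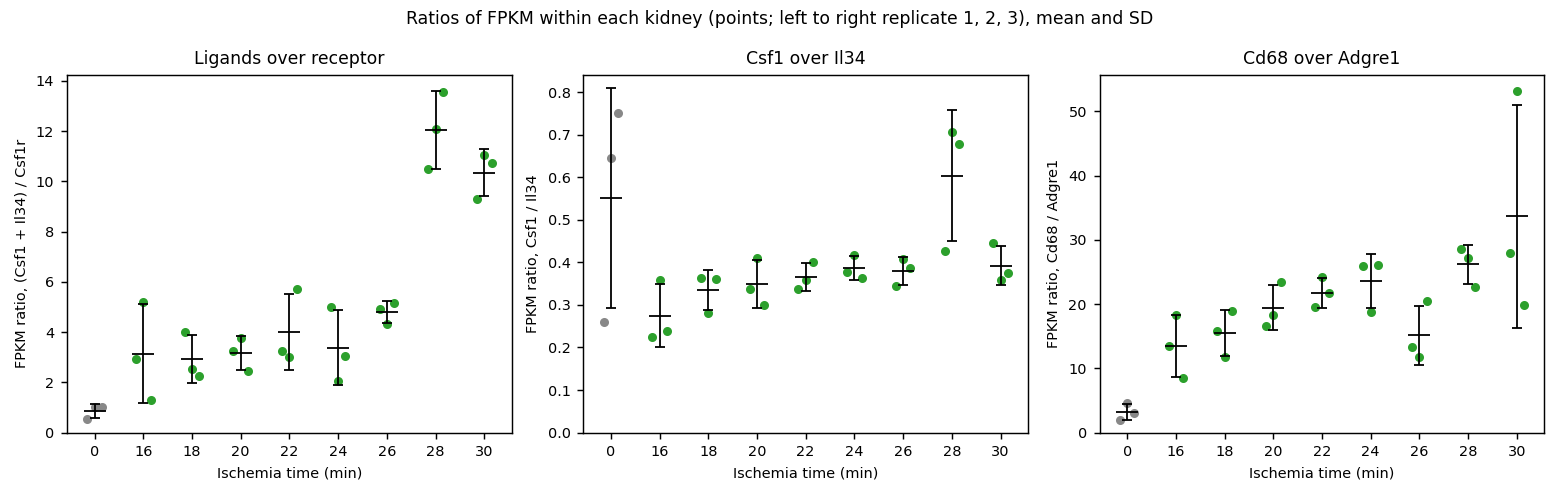
Ratios of FPKM within each kidney against ischemia time in min, with 1 point per kidney and a black bar for the mean ± SD of 3 kidneys. The ratio of the ligands to Csf1r lies between 4.31 and 5.17 at 26 min and between 10.5 and 13.6 at 28 min, and the ratio of Cd68 to Adgre1 is lowest at 0 min.

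Cd68 encodes a glycoprotein of lysosomes and endosomes that is used widely as a macrophage stain. Its gene lies at chr11:69664213-69666170 (GRCm38.p6, RefSeq). In the sham kidneys it was at 3.04, 3.61 and 3.48 FPKM, and at 16 min at 19.48, 30.33 and 8.81 FPKM. From 18 to 26 min it lay between 13.96 and 29.16 FPKM (median 23.04, 15 kidneys). It was at 26.02, 25.05 and 22.00 FPKM at 28 min and at 25.68, 28.18 and 30.87 FPKM at 30 min. All 24 clamped kidneys were above all 3 sham kidneys, but among the clamped groups every neighbouring pair of group means, in order of level, had overlapping kidneys.

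The log2 fold change of Cd68 against 0 min was 1.96 ± 0.26 at 16 min (adjusted p = 8.4e-05), between 2.08 and 2.5 from 18 to 26 min, 2.37 at 28 min and 2.63 at 30 min (adjusted p = 7.0e-08). This was the highest value of the 10 genes in each of the 8 comparisons. Between 26 and 28 min it differed by 0.29 ± 0.26 (adjusted p = 0.51), and between 28 and 30 min by 0.26 ± 0.26 (adjusted p = 0.61). At 16 min the calls of Cd68 and Il34 rested on the spread estimated from all 27 kidneys. In a fit of the 6 kidneys of these groups alone, the folds were 1.97 and 1.52, with adjusted p-values of 0.078 and 0.092.

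Adgre1 encodes F4/80, the surface protein by which most mouse kidney macrophages are recognised. Its gene is at chr17:57358581-57483529. It was at 1.53, 0.79 and 1.15 FPKM in the sham kidneys, between 0.85 and 1.87 FPKM (median 1.21) in the 18 kidneys from 16 to 26 min, and between 0.53 and 1.55 FPKM in the 6 kidneys at 28 and 30 min. The sham range overlapped that of each of the 8 clamped groups. The log2 differences from 0 min lay between -0.25 and -0.01, with adjusted p-values of 0.17 or more. For 30 min the 95% interval was -0.55 to 0.06 on the log2(FPKM + 1) scale. The direction at 16, 18, 20 and 26 min was positive without quantile normalization, with values from 0.12 to 0.18, so no direction can be given there.

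Cd68 and Adgre1, both markers of the same cell class, therefore parted. The ratio of their FPKM was 1.99, 4.57 and 3.03 in the sham kidneys and 13.5, 18.3 and 8.55 at 16 min. It was 28.6, 27.2 and 22.7 at 28 min, and 27.9, 53.2 and 19.9 at 30 min, where the highest value belongs to the kidney with Adgre1 at 0.53 FPKM. Every clamped kidney had a higher ratio than every sham kidney (16 against 0 min, 4.25 times by geometric means; 30 against 0 min, 10.2 times; a description, with no test).

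Cd14 encodes the co-receptor that passes lipopolysaccharide to TLR4, and it is made by monocytes and macrophages and, in injury, by tubular epithelium. It was at 3.70, 2.80 and 4.65 FPKM at 0 min and at 7.65, 12.18 and 2.58 FPKM at 16 min, where replicate 3 was below every sham kidney. From 18 to 26 min it lay between 4.59 and 10.63 FPKM (median 7.58). It was at 12.31, 13.04 and 10.41 FPKM at 28 min and at 15.25, 19.28 and 25.17 FPKM at 30 min, the 30 min kidneys lying above all other 24. The log2 fold change was between 0.53 and 0.77 from 16 to 26 min (adjusted p of 0.086 or more), 1.31 ± 0.33 at 28 min (adjusted p = 0.0025) and 2.01 ± 0.33 at 30 min (adjusted p = 3.2e-05). The steps from 26 to 28 min (0.55, adjusted p = 0.28) and from 28 to 30 min (0.70, adjusted p = 0.18) did not pass the test. Without replicate 3 of the 16 min group, Cd14 was called at 16 min as well (1.06, adjusted p = 0.0068).

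**Figure D3:**
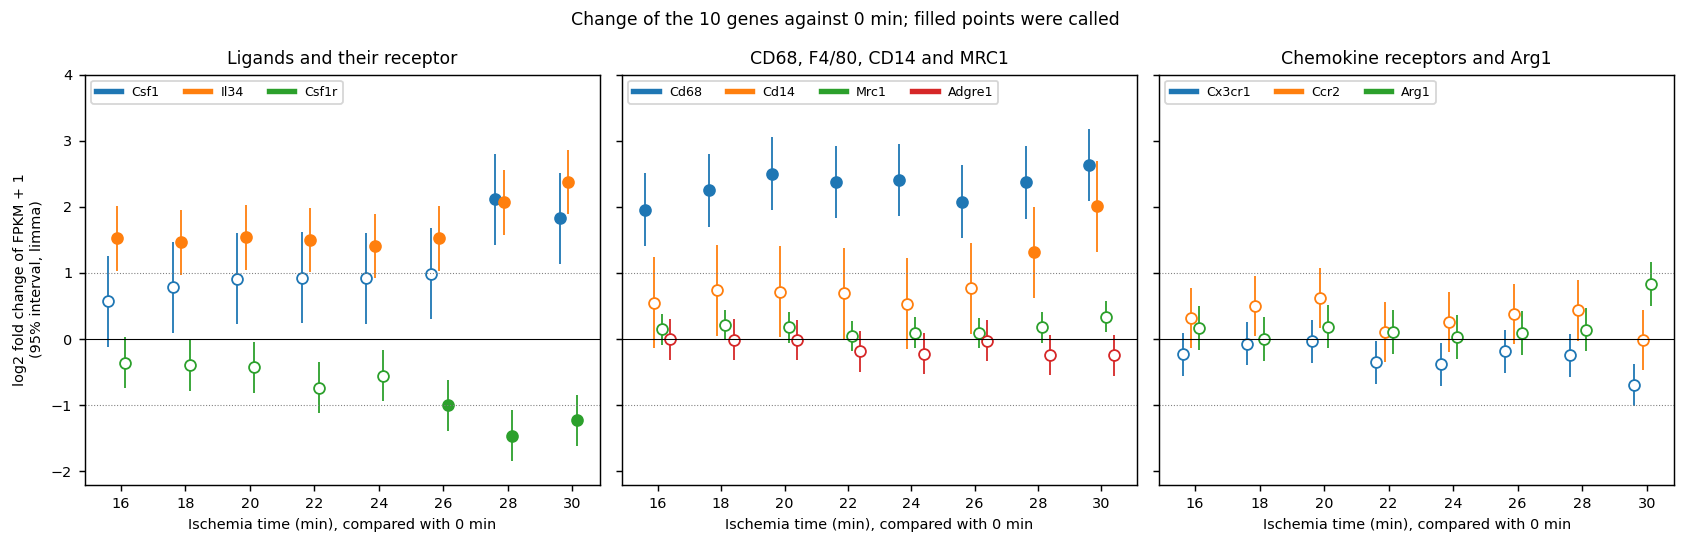
Log2 fold change of FPKM + 1 against 0 min (y axis, 1 scale for all panels) for each of the 10 genes at 8 ischemia times in min, with 95% intervals from limma, filled points for calls and dotted lines at the fold threshold of 1 in each direction. Cd68 and Il34 are filled at every time, Csf1 and Cd14 at 28 and 30 min, and Csf1r at 26, 28 and 30 min.

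Cx3cr1 and Ccr2, the receptors for fractalkine and for CCL2, lie on chromosome 9 at chr9:120048683-120068296 and chr9:124101918-124109140. Cx3cr1 was at 2.10, 1.60 and 1.57 FPKM at 0 min and between 1.11 and 2.51 FPKM in the 18 kidneys from 16 to 26 min, overlapping sham at each time but 24 min. It was at 1.12, 1.87 and 1.54 FPKM at 28 min and at 1.07, 0.46 and 1.1 FPKM at 30 min, where all 3 kidneys were below the other 24. The log2 difference at 30 min was -0.70 ± 0.16 (adjusted p = 7.9e-04), short of the fold threshold, and the FPKM mean was 0.499 of that at 0 min. With a pseudocount of 0.1 FPKM in place of 1, it passed at -1.17 (adjusted p = 6.4e-04).

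Ccr2 was at 1.28, 0.76 and 0.62 FPKM in the sham kidneys and reached 3.15, 2.04 and 1.44 FPKM at 20 min, its highest group mean. It was at 1.37, 1.96 and 1.79 FPKM at 28 min and at 1.5, 0.46 and 1.22 FPKM at 30 min, the last overlapping sham. The log2 difference was 0.62 ± 0.22 at 20 min (adjusted p = 0.047), below the fold threshold, and between -0.01 and 0.50 at the other times (adjusted p of 0.092 or more). At 30 min it was -0.01, with a 95% interval from -0.46 to 0.45.

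Their ligands were measured in the same kidneys. Of the 5 ligand genes, Ccl2 and Ccl7, which recruit CCR2 monocytes, were called higher at every ischemia time (all genes called higher, 1.28% to 5.14%). Ccl2 was at 0.66, 0.80 and 1.68 FPKM at 0 min and at 7.71, 13.33 and 2.15 FPKM at 16 min, and its log2 fold change lay between 1.49 at 26 min and 2.39 at 20 min. Ccl12, which also binds CCR2, was called lower at 30 min, at 0.00, 0.12 and 0.24 FPKM against 0.52, 5.75 and 6.94 FPKM at 0 min (log2 fold change -2.05, adjusted p = 2.0e-04). Ccl7 and Ccl12 are close in sequence to Ccl2, and how reads were divided among them is not given in the sources used here. Cx3cl1, which encodes fractalkine, was at 24.9 ± 0.184 FPKM (SD, n = 3) at 0 min and at 55.7 ± 2.32 FPKM at 24 min, the 1 time at which it was called (1.03, adjusted p = 1.2e-04). So the mRNA of several ligands was higher while neither receptor was called. Ccr2 was not flat in FPKM, however. At 18, 20, 24 and 28 min its mean was 2.27, 2.49, 1.70 and 1.93 times the sham mean, with no overlap with sham. At 16, 22, 26 and 30 min it overlapped sham.

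Mrc1 and Arg1 are often read as genes of alternatively activated macrophages, the first a mannose receptor also found on endothelium, the second the cytosolic arginase, which is induced in macrophages by interleukin-4 and related signals. Their genes are at chr2:14229414-14332023 and chr10:24915207-24927470. Both were low, with means over the 27 kidneys of 0.652 and 0.348 FPKM, at percentiles 33.2 and 29.1 of all genes. Mrc1 was at 0.61, 0.28 and 0.36 FPKM at 0 min and between 0.40 and 1.14 FPKM in the 24 clamped kidneys, and it was highest on average at 30 min, at 0.78, 0.84 and 1.02 FPKM (log2 difference 0.34 ± 0.11, adjusted p = 0.014, below the fold threshold).

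Arg1 was at 0.22, 0.09 and 0.13 FPKM at 0 min, between 0.04 and 0.76 FPKM in the 18 kidneys from 16 to 26 min, and at 0.27, 0.28 and 0.27 FPKM at 28 min. At 30 min it was at 0.58, 1.0 and 1.77 FPKM. The mean at 30 min was 7.61 times that at 0 min in FPKM, and the log2 difference was 0.83 ± 0.16 (adjusted p = 1.8e-04), which the added 1 FPKM kept below the threshold. With a pseudocount of 0.1 FPKM it was called, at 2.10 (adjusted p = 8.0e-04), with FPKM rescaled to a constant sum at 1.22, and without replicate 1 of the 30 min group at 1.03. From 28 to 30 min it differed by 0.68 ± 0.16 (adjusted p = 0.0084), also below the fold threshold, and by 0.49 (adjusted p = 0.069) without replicate 3 of the 30 min group. None of the 10 genes was called between 28 and 30 min, where limma called 1.05% of all genes. At an unadjusted p under 0.05 it was 3 of the 10 and 4872 of all genes. With the smaller pseudocount Arg1 was called there (1.53, adjusted p = 0.039).

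The other arginase gene, Arg2, which encodes the mitochondrial enzyme of the kidney tubule, was far more abundant than Arg1 per length and was called higher at every ischemia time, from 1.35 at 16 min to 2.63 at 30 min on the log2 scale. Its FPKM was 6.28 ± 2.66 (SD, n = 3) at 0 min and 45.4 ± 13.1 at 30 min. Among 9 genes of arginine metabolism and transport, Ass1 and Gatm were called lower at 28 and 30 min and Asl at 30 min (all genes called lower, 4.21% and 5.59%). Of 14 other genes of alternative activation, limma called 0 from 16 to 26 min (2 to 7 at an unadjusted p under 0.05). It called 1 at 28 min (all genes, 8.48%) and 2 at 30 min (10.7%). These were Chil3 (1.69 and 2.34) and, at 30 min, Msr1 (1.06), which encodes a scavenger receptor. The most abundant of that list, Tgm2 and Stat6, were called at no time. From 16 to 26 min, 5796 to 7230 of all 18188 genes tested had an unadjusted p under 0.05 against 0 min.

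Other macrophage markers were read beside the 10 genes to place Cd68. Of 24 such genes, 1 was called at 16 min (all genes, 2.25%), 2 at 28 min (8.48%) and 4 at 30 min (10.7%), of which 3 were higher and 1 lower. Their median log2 fold change lay between -0.20 and 0.03 over the 8 times. Maf, the most abundant, was called lower at 30 min (-1.13). Its mean at 0 min was 87.3 FPKM, against 131.6 FPKM for the other 23 markers summed, and which cells made it was not tested. Lyz2, which encodes lysozyme, was called higher at every time but 22 min, from 1.16 at 24 min to 1.53 at 20 min. Trem2 was called at 20, 22 and 24 min (1.2 to 1.29), Gpnmb at 28 and 30 min (1.60 and 1.86) and Itgam at 30 min (1.34). The added 1 FPKM understates the folds of these low genes. Trem2 was at most 0.06 FPKM at 0 min and at least 0.39 FPKM in every clamped kidney. Gpnmb was at most 0.05 and at least 0.33 FPKM. Itgam was at most 0.37 FPKM at 0 min and at least 0.84 FPKM from 18 min on. Cd86 (at least 0.61 FPKM at 0 min, at most 0.49 FPKM when clamped) and Maf (84.50 and 69.82 FPKM) went the other way. Fcer1g, C1qb and C1qa were called at no time.

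The complement genes C1qa, C1qb and C1qc, which are made in the kidney mainly by macrophages, summed to 42.9, 54.4 and 60.0 FPKM at 0 min and to 48.5, 61.1 and 41.8 FPKM at 16 min. Their sum was 27.2, 40.3 and 31.7 FPKM at 28 min, and 30.7, 33.4 and 72.6 FPKM at 30 min, the last in replicate 3. The 16 min kidneys in which Cd68 was raised thus overlapped the sham kidneys in C1q. Ptprc, the gene of the pan-leukocyte protein CD45, was called at no time, with group means between 1.16 and 1.55 FPKM.

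**Figure D4:**
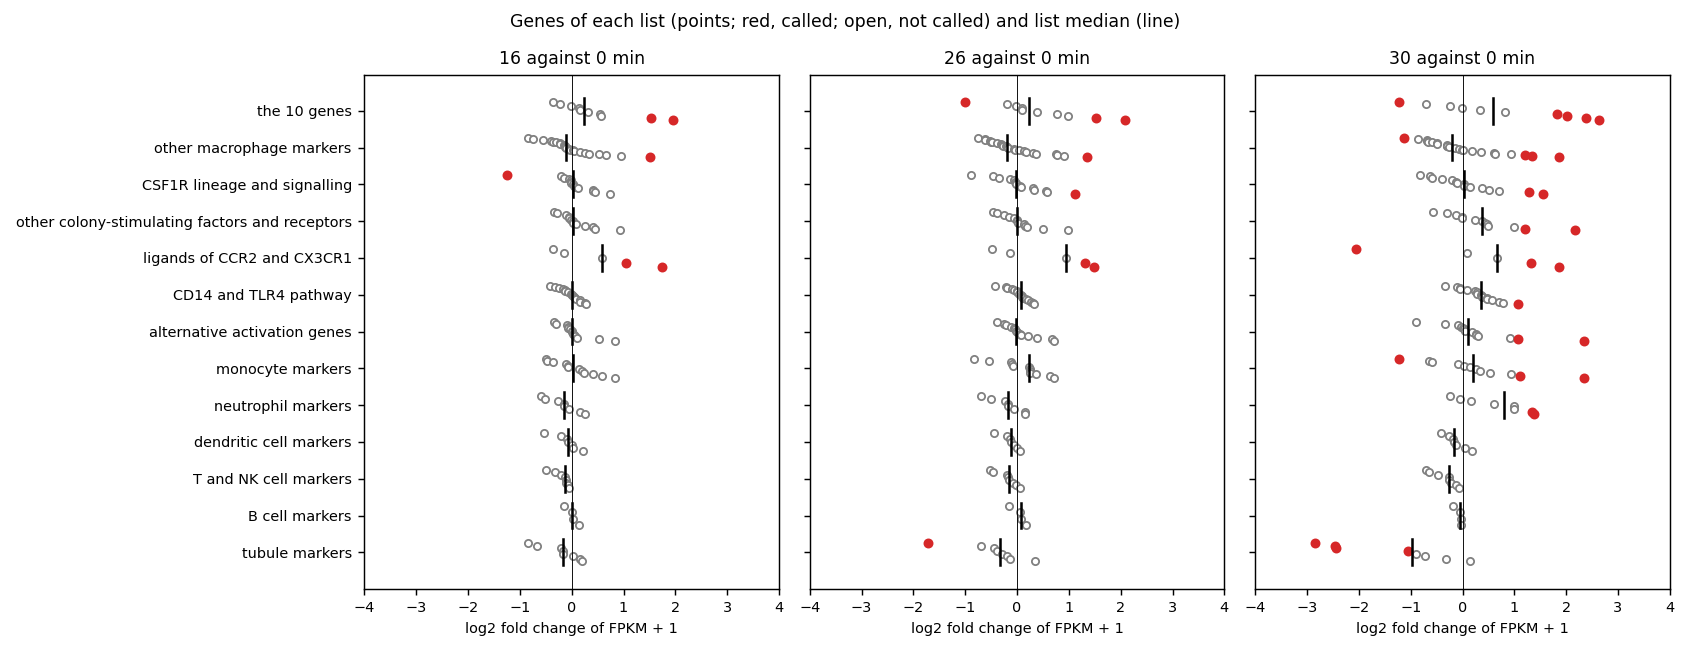
Log2 fold change of FPKM + 1 (x axis) of the 10 genes and of 12 lists of other genes at 16, 26 and 30 min against 0 min, with 1 point per gene, red for called and open for not called, and a black line at the median of the list. The medians of the macrophage, monocyte, dendritic, T and NK, and B cell lists lie between -0.26 and 0.23 in these panels, while 4 of 8 tubule markers are called lower at 30 min.

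Of 15 genes for the transcription factors and signalling partners of CSF1R, 1 was called lower from 16 to 22 min (all genes called lower, 0.962% to 1.2%). It was Irf8 (-1.03 to -1.29), a factor of monocyte and dendritic cell development. Fgr, a SRC-family kinase gene, was called higher at 26 min (1.11), Runx1, Cebpb and Fgr at 28 min (1.1, 1.01 and 1.18), and Runx1 and Cebpb at 30 min (1.29 and 1.56). At these times 2.16%, 4.27% and 5.14% of all genes were called higher. Spi1, which encodes the factor PU.1 that drives Csf1r itself, was called at no time. Of 13 genes for other colony-stimulating factors, their receptors and alternative receptors of IL-34, Sdc1, encoding the heparan sulphate proteoglycan syndecan-1 to which IL-34 can bind, was called higher at 22, 24, 28 and 30 min, with 1.71 at 28 min and 2.18 at 30 min. Il3ra was called higher at 30 min (1.21), where 2 of the 13 and 5.14% of all genes were called higher. Csf2 and Csf3 were called at no time. Of 17 genes of the TLR4 pathway that CD14 serves, only Nfkbia, an inhibitor of NF-kB, was called, at 30 min (1.06, all genes 10.7%). From 16 to 28 min limma called 0 of the 17, with 4 to 9 at an unadjusted p under 0.05. Of all 18188 genes tested, 5796 passed that level at 16 min and 9682 at 28 min.

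Markers of other cell types moved beside these genes at the longer times. Of 8 neutrophil markers, limma called 0 from 16 to 28 min against sham (1 to 5 at an unadjusted p under 0.05). At 30 min it called 2 (S100a8, 1.35, and S100a9, 1.39, all genes 10.7%), both also called from 26 to 28 min (1.29 and 1.05). The summed FPKM of the list ran from 5.49 to 11.89 at 0 min, 15.53 to 19.35 at 28 min and 23.33 to 31.35 at 30 min. S100a8 and S100a9 made up most of the sum at 28 and 30 min. The means of Cxcr2, Mmp8 and Retnlg also rose from 0 to 30 min. Ly6g and Mpo did not rise, with means of 0.383 and 0.033 FPKM at 0 min and 0.227 and 0.0 FPKM at 30 min. Of 12 monocyte markers, 2 were called higher at 28 min (Chil3 and Ccr1), where 8.48% of all genes were called. At 30 min it was 3 (Chil3 and F13a1 higher, Ly6c2 lower), against 10.7% of all genes. Chil3 is also in the list of alternative activation genes. Of 8 tubule markers, 1 was called lower at 26 min (Slc12a1), 5 at 28 min and 4 at 30 min (all genes called lower, 1.61%, 4.21% and 5.59%). Their summed FPKM was 4370 to 4892 at 0 min, 3002 to 4190 at 26 min and 1698 to 2069 at 28 min. At 30 min the sum was 1404, 1328 and 3394 FPKM, so replicate 3, the kidney highest for 9 of the 10 genes, lay within the 26 min range while the other two lay below the 28 min kidneys. Umod, the uromodulin gene of the thick ascending limb, was at 463, 454 and 2034 FPKM in these 3 kidneys. Aqp2, Slc12a1, Slc12a3 and Atp6v1b1 were also highest in replicate 3. The other tubule markers were not. Lrp2 was at 31.53, 22.32 and 14.08 FPKM, Slc5a2 at 117.76, 93.38 and 79.79 FPKM, and Slc34a1 at 460, 411 and 450 FPKM. Of 6 endothelial and stromal markers, Col1a1 was called higher at every time and Pdgfrb at 24 min (all genes called higher, 1.28% to 5.14%). Of all 18188 genes tested, 5796 had an unadjusted p under 0.05 at 16 min, 9682 at 28 min and 10311 at 30 min, against 0 min. Of 7 dendritic, 8 T and NK, and 4 B cell markers, all but Zbtb46 and Cd8a had a mean under 1 FPKM at 0 min. With the added 1 FPKM, a fall of such genes could scarcely pass the fold threshold. None of these markers was called against 0 min by limma (all genes, 2.25% to 10.7%). At an unadjusted p under 0.05 it was 2 dendritic, 1 to 5 T and NK, and 0 to 1 B cell markers at each time. The summed FPKM of the T and NK list fell, however. It was 1.69 to 5.46 at 0 min, 0.91 to 1.01 at 28 min and 0.53 to 0.82 at 30 min. The dendritic sum was 3.26 to 3.75 at 0 min, 2.44 to 3.23 at 28 min and 2.82 to 4.59 at 30 min. The B cell sum overlapped sham at both longer times. The part of these cell types in the values of Csf1, Il34, Csf1r and Cd14 was not tested.

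Groups were also ordered by mean level. For Cd68 and Il34, 1 of 8 neighbouring pairs in the order did not overlap, the one between 0 min and the next group. For Csf1 it was the pair of 26 and 30 min, for Cd14 the pair of 28 and 30 min, for Cx3cr1 the pair of 30 and 24 min, and for Arg1 the pair of 28 and 20 min. For Csf1r, 2 pairs did not overlap, 28 with 30 min and 30 with 26 min. No neighbouring pair was free of overlap for Adgre1, Mrc1 and Ccr2.

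The genes with the most similar time course were sought for the 8 of these genes above a mean of 1 FPKM, among 12345 other genes above that level, by the Euclidean distance between profiles of 9 group means, each centred and divided by its SD (distance 0 for identical shape). Nearest to Csf1 were Trim27 (0.277) and 2010003K11Rik (0.332), to Il34 Cfl1 (0.300) and Ywhae (0.420), and to Csf1r Dock9 (0.261) and Brap (0.477). Nearest to Cd68 were Tmem238 (0.415) and Csnk1g2 (0.496), and to Cd14 Dctn2 (0.320) and Arl4c (0.398). The remaining 3 had no close match, with Slc35d2 at 0.827 from Cx3cr1, Ccdc122 at 0.878 from Adgre1 and Evi2a at 1.23 from Ccr2 as the nearest. These distances rest on 9 means from the same kidneys and were not tested. Among the 10 genes, Il34 ranked 230 in likeness to Cd68, at 1.24, and Csf1r was far from Csf1, at 5.58. The measure ignores the size of a change, since Tmem238 went from 27.9 FPKM at 0 min to 52.7 FPKM at 30 min while Cd68 went from 3.38 to 28.2 FPKM.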

How the data were processed

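RNA-Seq of the left kidneys of 27 mice, 3 at each of 9 ischemia times, gave the deposited table, in which the authors list 1 FPKM value for every gene symbol in each kidney, to 2 decimals. The submitters' processing notes name Bowtie2, RSEM, DESeq2 and GRCm38.p6 without roles or versions, and the paper calls the unit RPKM. The annotation is not given in the sources used here. Read counts were not used here, so counting error is unknown. Precision comes from the spread between mice within groups, pooled over the 9 groups and drawn by limma toward that of other genes. The p-values weigh a difference of means against that spread.

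Samples were grouped by the labels. log2(FPKM + 1) was quantile normalized and fitted in limma 3.58.1 (R 4.3.3), with 1 mean per ischemia time and no replicate block, for the 18188 genes with a value above 0 FPKM in 3 or more kidneys. A call needed a log2 fold change beyond 1 in either direction together with an adjusted p (Benjamini-Hochberg, all genes tested) under 0.05. The trend over 16 to 26 min needed the adjusted p alone. The code was tested on simulated data. Ratios of genes, chosen with their changes known, are given as descriptions with no test.

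The 10 genes and the gene lists were chosen with earlier results of these data known. All 10 genes were named, along with the genes of highest mean FPKM in some of the lists and the genes nearest in profile. Other list members were named after their values were seen, some because they were called and some that were not called. Motifs were searched with Python 3.11.15 and figures drawn with matplotlib 3.10.9. Positions and promoters came from RefSeq on GRCm38.p6.

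The alternatives left out quantile normalization or replaced it by scaling to a constant sum (TPM), set the pseudocount to 0.1 FPKM, kept genes at 1 FPKM or more in 3 or more kidneys, dropped the filter, used eBayes with a trend, fitted the compared times only, added a replicate block, or removed 1 replicate at a time.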

Additional observations from a re-analysis of the deposited data

Results flagged for a closer look

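Csf1 was the 1 of the 10 genes called, on both the fold and the adjusted p, in the direct tests between 26 and 28 min and between 28 and 30 min, with a log2 difference of 1.13 between 28 and 26 min (limma, adjusted p = 0.021). It was higher in 3 of 3 kidneys at 28 min than in every kidney at 26 min. The call was lost in 4 of the 6 fits that left out 1 kidney of these groups, with adjusted p-values of 0.060 to 0.077 there. Arg1 had the smaller adjusted p-value between 28 and 30 min, 0.0084 in limma, and its log2 difference of 0.68 was below the fold threshold. With a pseudocount of 0.1 FPKM Arg1 was called there, at 1.53.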

How the results depend on the processing

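The count of the 10 genes called against 0 min at 28 min was the same under every alternative, at 5. At 16 min, 0 were called in a fit of these 6 kidneys alone, and leaving out each replicate gave 2 to 4. Leaving out each replicate gave 2 to 4 at 26 min and 0 to 1 from 26 to 28 min, and a pseudocount of 0.1 FPKM called 1 (Arg1) from 28 to 30 min. The cause of these differences was not tested. Without replicates in turn the other counts were 2 to 3 at 18 to 24 min, 5 to 6 at 30 min, and 0 from 28 to 30 min and for the trend. Csf1 passed the fold threshold at 20 to 26 min without quantile normalization (1.01 to 1.13) and as TPM (1.09 to 1.24), and at 22 to 26 min with the smaller pseudocount (1.07 to 1.14). Cd14 passed at 26 min as TPM (1.02).

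The signs that turned all belong to differences that were not called. For Adgre1, the value without quantile normalization and as TPM was 0.15 and 0.19 at 16 min, 0.18 and 0.21 at 18 min, 0.14 and 0.17 at 20 min, 0.12 and 0.18 at 26 min, and 0.017 and 0.022 from 28 to 30 min, where the filter of 1 FPKM gave 0.051. For Cx3cr1 it was 0.11 and 0.11 at 18 min and 0.11 and 0.12 at 20 min. For Ccr2 at 30 min it was 0.11 and 0.13, with 0.0083 under the filter, and as TPM -0.012 from 26 to 28 min. For Arg1 at 18 min the smaller pseudocount gave -0.059, and the trend of Il34 as TPM was 0.018. Leaving out each replicate, Adgre1 ran from -0.12 to 0.11 at 16 min, -0.12 to 0.10 at 18 min, -0.12 to 0.10 at 20 min, -0.17 to 0.090 at 26 min and -0.18 to 0.15 from 28 to 30 min. Arg1 ran from -0.014 to 0.33 at 16 min, -0.093 to 0.068 at 18 min, -0.014 to 0.16 at 22 min, -0.0074 to 0.071 at 24 min, -0.0061 to 0.10 from 26 to 28 min and -0.17 to 0.070 for the trend. Cx3cr1 ran from -0.18 to 0.0099 at 18 min, -0.14 to 0.095 at 20 min and -0.13 to 0.041 from 26 to 28 min. Ccr2 ran from -0.0098 to 0.28 at 22 min, -0.16 to 0.20 at 30 min and -0.10 to 0.14 from 26 to 28 min, and Mrc1 from -0.021 to 0.15 at 22 min. The trends of Cd68, Il34 and Cd14 ran from -0.18 to 0.40, -0.32 to 0.14 and -0.30 to 0.35.

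The replicate numbers did not pair the kidneys, since the correlations of deviations between same-numbered kidneys of different times ran from -0.42 to 0.48 (median -0.0087, 108 pairs). With a replicate block the number of the 10 genes called was the same in every comparison (5 at 30 min, 1 from 26 to 28 min), and 9 genes of the whole table had a trend in place of 2.

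Over all genes, a pseudocount of 0.1 FPKM called 795, 1077, 926, 1154, 1109, 1318, 2626 and 3276 genes from 16 to 30 min against 0 min, in place of 410, 557, 457, 599, 567, 686, 1542 and 1950, and 515 and 425 in place of 272 and 191 for the last steps. The fit of the compared times only called 40 at 16 min and 0 from 28 to 30 min and for the trend. Without replicate 3 at 16 min, 622 were called there. From 28 to 30 min the count was 83 to 339, and for the trend 0 to 92, with a replicate left out. As TPM the calls higher and lower were, from 16 to 30 min against 0 min, 404 and 170, 553 and 187, 475 and 175, 586 and 219, 615 and 186, 674 and 277, 1114 and 793, and 1333 and 1044. They stood in place of 232 and 178, 358 and 199, 282 and 175, 381 and 218, 358 and 209, 393 and 293, 776 and 766, and 934 and 1016, so that the higher calls outnumbered the lower ones at 30 min as TPM and not in the values reported. Without quantile normalization they were 465 and 161 at 24 min and 1086 and 886 at 30 min. Read depth is unknown, which limits what can be said of Mrc1 and Arg1 below 1 FPKM.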
